A study of Homo sapiens with 12 samples.

Results

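The genes of cholesterol and fatty acid synthesis were followed as a set of 37, chosen by name as the enzymes of the sterol and fatty acid pathways together with the SREBP and LXR genes that control them. Of these, 33 had a probe set on the array that named that gene alone, out of 19775 genes measured, and each was represented by its probe set with the highest mean over the 12 arrays. CYP51A1 and FADS1, whose probe sets name more than 1 gene, and FDFT1 and NR1H2, which matched no probe set in the annotation used here, were not analysed here. RNA came from Rec-1, SP-49 and Mino, 3 established lines grown from mantle cell lymphoma, which is a cancer of B cells, and each line stands for 1 tumour. Each line was measured on 2 arrays after 24 h in the gamma-secretase inhibitor (GSI) compound E at 1 µM, which keeps Notch receptors from being cut and activated, and on 2 arrays after 24 h in 0.1% DMSO (Mock). Rec-1 and SP-49 were grown with 10% serum and Mino with 15%, so line and serum cannot be told apart. The labels do not say whether the 2 arrays of a group came from separate cultures, so each p-value reflects only how far these arrays varied, and that variation may be technical.

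Cells make cholesterol from acetyl-CoA through mevalonate, isoprenoid phosphates and squalene, and fatty acids from the same acetyl-CoA through malonyl-CoA. When sterol in the endoplasmic reticulum is low, SCAP carries the SREBP transcription factors to the Golgi, where they are cut and released to switch on genes of both pathways. INSIG proteins hold SCAP back when sterol is plentiful. LXR receptors, bound by oxidised cholesterol, switch on sterol export and, through SREBF1, fatty acid synthesis.

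All levels below are deposited log2 values (lowest 0.58, highest 12.78, median 1.99), and a difference of 1 is a doubling. Of the 33 genes, ABCA1 was the only one whose highest group mean lay under that median. HES1, a direct Notch target that shows whether the inhibitor acted, had levels of 2.23 and 1.70 in GSI and 5.86 and 5.67 in Mock Rec-1 cells, and of 2.53 and 2.33 in GSI and 6.11 and 5.77 in Mock SP-49 cells. In Mino it was near the median in all 4 arrays, at 1.82 and 1.73 in GSI and 1.69 and 2.0 in Mock cells. Of 8 listed markers of mantle cell lymphoma and B cells, 7 were measured, among them CCND1, SOX11 and CD5. Their mean levels were 7.65 to 8.48 in GSI and 7.70 to 8.24 in Mock arrays, but single markers differed widely. Over GSI and Mock arrays, CD5 had levels of 2.23 to 2.96 in Rec-1, 2.55 to 2.94 in SP-49 and 3.83 to 4.82 in Mino. SOX11 had 4.77 to 4.99 in Rec-1, 8.50 to 8.68 in SP-49 and 7.40 to 7.53 in Mino. Mean levels of 4 measured macrophage and monocyte markers of 5 listed were 1.49 to 1.73 in GSI and 1.46 to 1.64 in Mock arrays. Means of 4 T-cell markers were 2.17 to 2.51 in GSI and 2.10 to 3.11 in Mock arrays, and were lower in GSI than in Mock Rec-1 cells (2.49 and 2.51, against 2.75 and 3.11), where CD3D had 4.03 and 4.30 in GSI and 4.81 and 4.79 in Mock cells. The mean of the lymphoma and B-cell markers was higher in GSI than in Mock arrays of Rec-1 (8.02 and 8.15, against 7.78 and 7.76). The same held in SP-49 (8.44 and 8.48, against 8.23 and 8.24). PAX5, a marker in that mean, was lower in GSI than in Mock Rec-1 cells (8.42 and 8.49, against 8.86 and 8.87). It was also lower in GSI than in Mock SP-49 cells (9.42 and 9.46, against 9.59 and 9.70). GSI replicate 2 had the narrowest spread of values among the 12 arrays in both Rec-1 (SD over probe sets 1.95) and SP-49 (2.0), against 2.01 to 2.05 in the others. GAPDH probe sets near the 3' end read higher than those near the 5' end, a gap that grows as RNA degrades, by 0.59 and 0.49 in GSI and 0.41 and 0.37 in Mock Rec-1 cells. The same gap was 0.35 and 0.44 in GSI and 0.35 and 0.34 in Mock SP-49 cells, and 0.31 and 0.39 in GSI and 0.26 and 0.25 in Mock Mino cells. For ACTB the gap was 2.0 and 1.94 in GSI and 1.73 and 1.79 in Mock Mino cells, and overlapped between GSI and Mock arrays in Rec-1. The part of these array differences in the results was not tested.

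The promoter windows of STARD4, HMGCS1 and SREBF2 are shown because STARD4 and HMGCS1 passed the test below and SREBF2 encodes the SREBP that acts on sterol genes. Each runs from 250 bases before to 50 bases after the gene's start in RefSeq on GRCh38.p14, written 5' to 3' on the gene's strand, with capitals on a sterol response element (SRE, searched as TCACNCCAC) and on CCAAT boxes, the letters bound by NF-Y, a factor known to act beside SREBP. A CCAAT box on the opposite strand reads ATTGG. Where a gene had several windows, the one with the most CCAAT boxes was taken. The STARD4 window is chr5:111512486-111512785, minus strand, with CCAAT boxes 161 and 130 bases before the start. The HMGCS1 window is chr5:43313363-43313662, minus strand, with CCAAT boxes 155 and 100 bases before the start. The SREBF2 window is chr22:41832855-41833154, plus strand, with an SRE 133 bases and a CCAAT box 106 bases before the start.
STARD4: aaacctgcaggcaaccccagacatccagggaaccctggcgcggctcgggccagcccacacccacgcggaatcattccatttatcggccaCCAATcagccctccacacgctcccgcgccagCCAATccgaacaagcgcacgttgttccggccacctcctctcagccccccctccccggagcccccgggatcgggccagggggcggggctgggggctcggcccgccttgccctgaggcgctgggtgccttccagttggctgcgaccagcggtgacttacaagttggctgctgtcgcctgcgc
HMGCS1: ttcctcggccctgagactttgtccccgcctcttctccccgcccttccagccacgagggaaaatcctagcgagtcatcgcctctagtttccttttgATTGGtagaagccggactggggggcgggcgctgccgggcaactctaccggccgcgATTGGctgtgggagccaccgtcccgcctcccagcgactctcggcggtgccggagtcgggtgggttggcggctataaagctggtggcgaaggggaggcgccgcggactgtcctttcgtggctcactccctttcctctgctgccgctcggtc
SREBF2: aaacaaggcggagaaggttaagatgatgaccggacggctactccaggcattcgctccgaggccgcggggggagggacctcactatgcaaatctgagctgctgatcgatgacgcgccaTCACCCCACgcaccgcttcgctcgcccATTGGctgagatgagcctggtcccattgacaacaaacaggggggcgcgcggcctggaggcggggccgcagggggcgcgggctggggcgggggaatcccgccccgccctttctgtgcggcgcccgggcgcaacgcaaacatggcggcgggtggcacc

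Such windows were at hand for 32 of the 37 genes, and SQLE, FDFT1, ACAT2, FASN and ABCG1 were not among them. A CCAAT box on either strand stood in the window of 21 of the 32 genes (65.6%), against 39.7% of 27305 genes. Some genes have several windows, and counted by window the share was 53.2% of 47, against 34.6% of 35116. The 2 SREBF2 matches do not overlap, and SREBF2 was the only one of the 32 genes with the SRE letters (3.12%), which stood in 1.39% of all genes. GGGCGG, the letters bound by Sp1, stood in 31 of the 32 (96.9%), against 48.3% of all genes. Among genes measured on the array the shares for CCAAT and GGGCGG were 41.7% and 64.6%. CACGTG stood in 5 of the 32 genes (15.6%), against 8.77%, and the LXR-type repeat of AGGTCA after any 4 bases in 0 of the 32, against 0.0256%. These are matches of letters in a short window and say nothing of whether a factor was bound.

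In Rec-1, 3 of the 33 genes passed the test after GSI: STARD4 and HMGCS1 rose and FASN fell. The test was limma's moderated test with Benjamini-Hochberg adjustment over all genes and a threshold of 0.05, which called 5.77% of all genes in this line, 2.15% higher and 3.62% lower. The median change of the 33 genes was 0.08 on the log2 scale, against 0.01 over all genes. At an unadjusted p under 0.05 there were 11 of 33, against 19.2% of all genes. In bulk RNA, fewer cells of a type and less RNA per cell cannot be told apart.

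**Figure D1:**
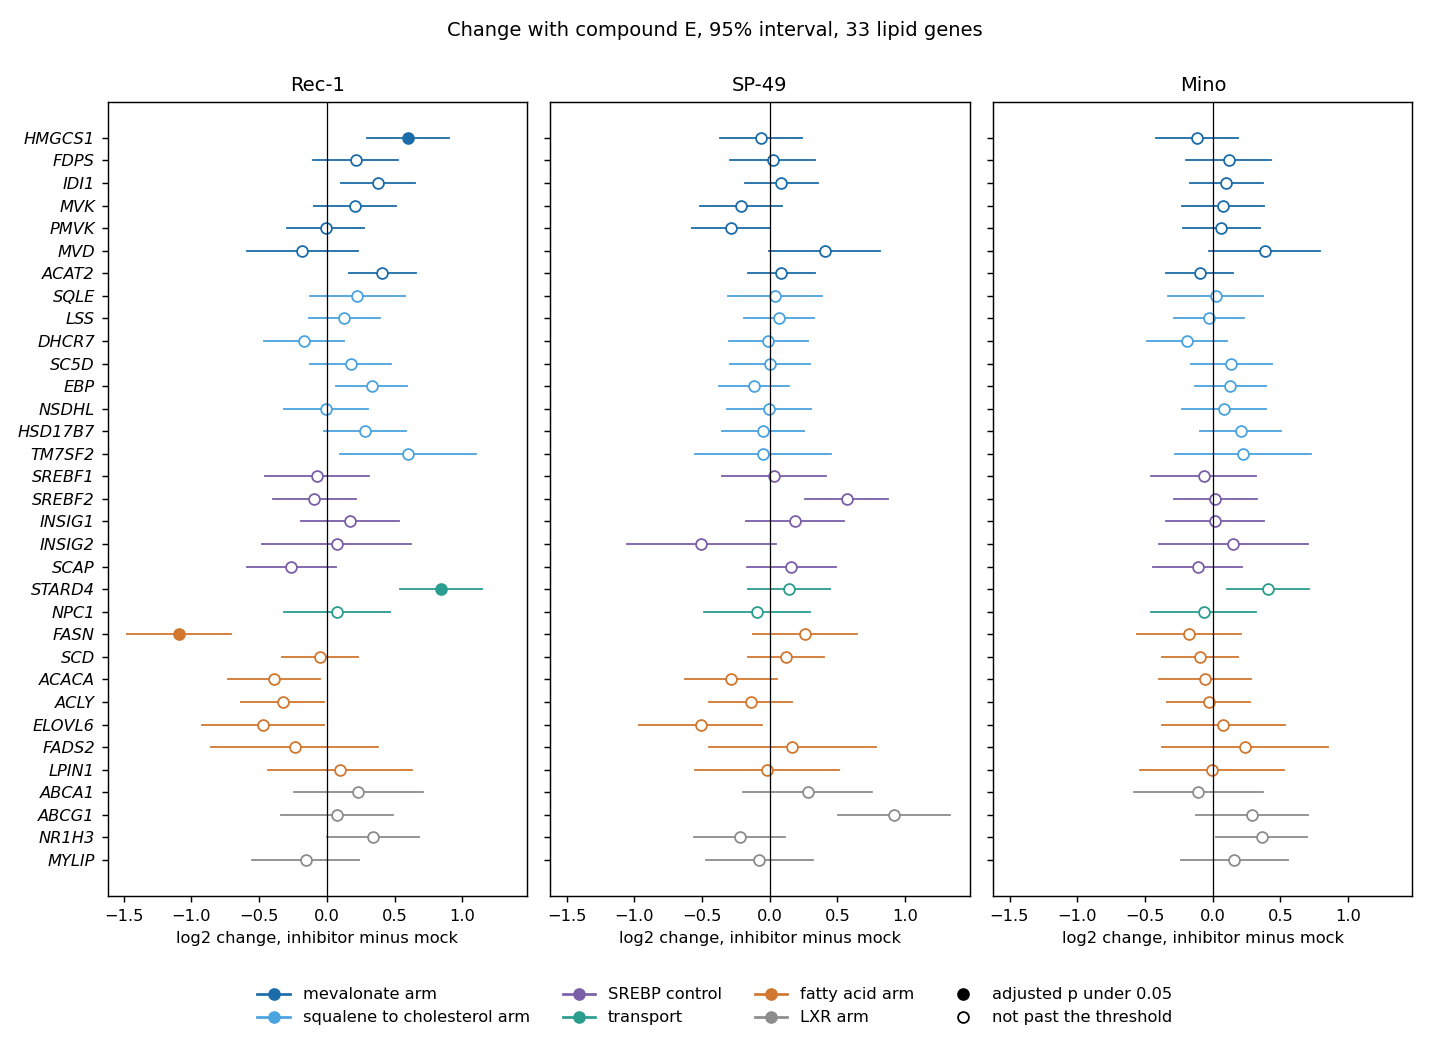
Change after GSI (GSI minus Mock, log2 scale, horizontal axis) of the 33 measured genes, ordered by role, in Rec-1, SP-49 and Mino. Points are limma estimates from 2 arrays a group, lines are 95% intervals, and filled points passed the threshold: STARD4, HMGCS1 and FASN in Rec-1 and none in the other lines.

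Among enzymes of the mevalonate arm, HMGCS1, which makes HMG-CoA from acetyl-CoA and acetoacetyl-CoA, had levels of 6.60 and 6.72 in GSI and 6.20 and 5.92 in Mock Rec-1 cells. Both GSI arrays were above both Mock arrays. The rise was 0.60 (95% interval 0.30 to 0.90, 1.52-fold, limma adjusted p = 0.0276). This call ended without Mock replicate 2 (0.46, limma adjusted p = 0.205) and without GSI replicate 2 (0.54, limma adjusted p = 0.116), and with the mean of the gene's 2 probe sets the change was 0.19 (limma adjusted p = 0.48).

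ACAT2, the cytosolic thiolase that joins acetyl-CoA units at the head of the pathway, had levels of 8.37 on both GSI arrays and 7.95 and 7.97 on the Mock arrays of Rec-1. The groups were far apart relative to the gap within each pair, yet the change of 0.41 (0.16 to 0.66) missed the threshold (limma adjusted p = 0.06). IDI1, which isomerises the 5-carbon isoprenoid unit, had 9.27 and 9.22 in GSI and 8.89 and 8.84 in Mock cells. Here too the GSI arrays lay above the Mock arrays, with a change of 0.38 (0.11 to 0.65, limma adjusted p = 0.109). Both passed with the intensity trend and robust prior (limma adjusted p = 0.0139 for ACAT2 and 0.00614 for IDI1). They also passed with quantile normalization applied again (limma adjusted p = 0.0297 and 0.0479). However, ACAT2 did not pass in 19 of 22 alternatives and IDI1 in 20 of 22. With the mean of its probe sets the IDI1 change was 0.22 (limma adjusted p = 0.403). The other mevalonate genes of Rec-1, namely FDPS, MVK, PMVK and MVD, had changes of -0.18 to 0.21 and none passed.

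None of the 8 measured genes between squalene and cholesterol passed in Rec-1. EBP, a sterol isomerase late in the pathway, had levels of 6.89 and 6.90 in GSI and 6.65 and 6.48 in Mock cells. Its GSI arrays lay above its Mock arrays, with a change of 0.33 (0.07 to 0.59, limma adjusted p = 0.148). TM7SF2, a sterol reductase, had a change of equal size to that of HMGCS1, 0.60, but its 2 Mock arrays stood apart at 3.93 and 4.80, with both GSI arrays close together at 4.99 and 4.94 (limma adjusted p = 0.173). Over both sterol arms, 15 genes, 11 changes were above 0 (73.3%, against 52.0% of all genes) and 4 below, with a median of 0.21. In 10 of the 15 both GSI arrays lay above both Mock arrays and in 1, DHCR7, both lay below, against 22.9% and 22.3% of all genes. DHCR7, which performs the last reduction to cholesterol, had 6.27 and 6.36 in GSI and 6.54 and 6.42 in Mock cells. In Mino 11 of the same 15 changes were also above 0 and 4 below, with a median of 0.085. In SP-49 7 were above 0 and 8 below. The shares of all genes above 0 were 49.1% in Mino and 45.8% in SP-49.

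The genes of SREBP control did not pass in Rec-1. SREBF2, the SREBP that acts mainly on sterol genes, had levels of 4.75 and 4.91 in GSI and 4.86 and 4.98 in Mock cells. SREBF1, the SREBP that acts mainly on fatty acid genes, had 4.09 and 3.86 in GSI and 4.05 and 4.04 in Mock cells. The groups overlapped for both. Another SREBF2 set, with a mean of 4.37 against 4.76 in the set used, had a change of 0.51 (limma adjusted p = 0.216 over all probe sets). INSIG1, itself an SREBP target, had 7.66 and 7.15 in GSI and 7.25 and 7.21 in Mock cells, so that 1 GSI array lay above and 1 below the Mock pair. In the sets used, the 5 control genes had changes of -0.26 to 0.17, and the smallest limma adjusted p among them was 0.387.

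STARD4, a carrier of cholesterol between membranes, had levels of 6.10 and 5.89 in GSI and 5.12 and 5.18 in Mock Rec-1 cells. Both GSI arrays were well above both Mock arrays, and the rise of 0.84 (0.54 to 1.15) was 1.8-fold (limma adjusted p = 0.00471). It passed without any 1 of the 12 arrays, with changes of 0.74 to 0.95. In a fit of the 4 Rec-1 arrays alone its limma adjusted p was 0.102, and none of the 33 genes passed. NPC1, which releases cholesterol from lysosomes, had a change of 0.08 with overlapping groups.

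FASN, the synthase that builds palmitate from malonyl-CoA, had levels of 4.86 and 5.27 in GSI and 6.03 and 6.29 in Mock Rec-1 cells. Both GSI arrays were far below both Mock arrays. The change was -1.09 (-1.48 to -0.71, 2.13-fold lower, limma adjusted p = 0.00441). Without Mock replicate 2 it was -0.96 and narrowly missed the threshold (limma adjusted p = 0.0522). FASN's only other probe set, dim with a mean of 2.17, changed the opposite way by 0.66, so that with the mean of both sets the change was -0.22 (limma adjusted p = 0.473).

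The other fatty acid genes of Rec-1 did not pass. ACACA, which makes malonyl-CoA, had a change of -0.39, ACLY, which makes cytosolic acetyl-CoA, of -0.33 and ELOVL6, which lengthens palmitate, of -0.47, with limma adjusted p between 0.193 and 0.238. In all 3 both GSI arrays lay below both Mock arrays. SCD, the desaturase that makes oleate, had 8.38 and 8.33 in GSI and 8.44 and 8.37 in Mock cells, a change of -0.05 with overlapping groups. FADS2, a desaturase of polyunsaturated fatty acids, had -0.24 and LPIN1, a phosphatidate phosphatase of triglyceride synthesis, 0.10. Over the 7 measured fatty acid genes, 6 changes were below 0 and 1 above, with a median of -0.33 against 0.01 over all genes. In 4 of them both GSI arrays lay below both Mock arrays and in 0 above, against 22.3% and 22.9% of all genes.

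In the LXR group of Rec-1 no gene passed. NR1H3, which encodes LXR alpha, had levels of 1.96 and 2.32 in GSI and 1.91 and 1.69 in Mock cells, all near the median of the array. ABCA1, an exporter of cholesterol, had 1.57 and 2.23 in GSI and 1.84 and 1.49 in Mock cells, with overlap. ABCG1, another exporter, had 1.40 and 1.43 in GSI and 1.31 and 1.38 in Mock cells, near the bottom of the range. MYLIP, a ubiquitin ligase for lipoprotein receptors, had a change of -0.15. Over all 33 genes in Rec-1, 13 had both GSI arrays above and 6 had both below the Mock arrays, where the background of 22.9% and 22.3% stands for all genes.

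**Figure D2:**
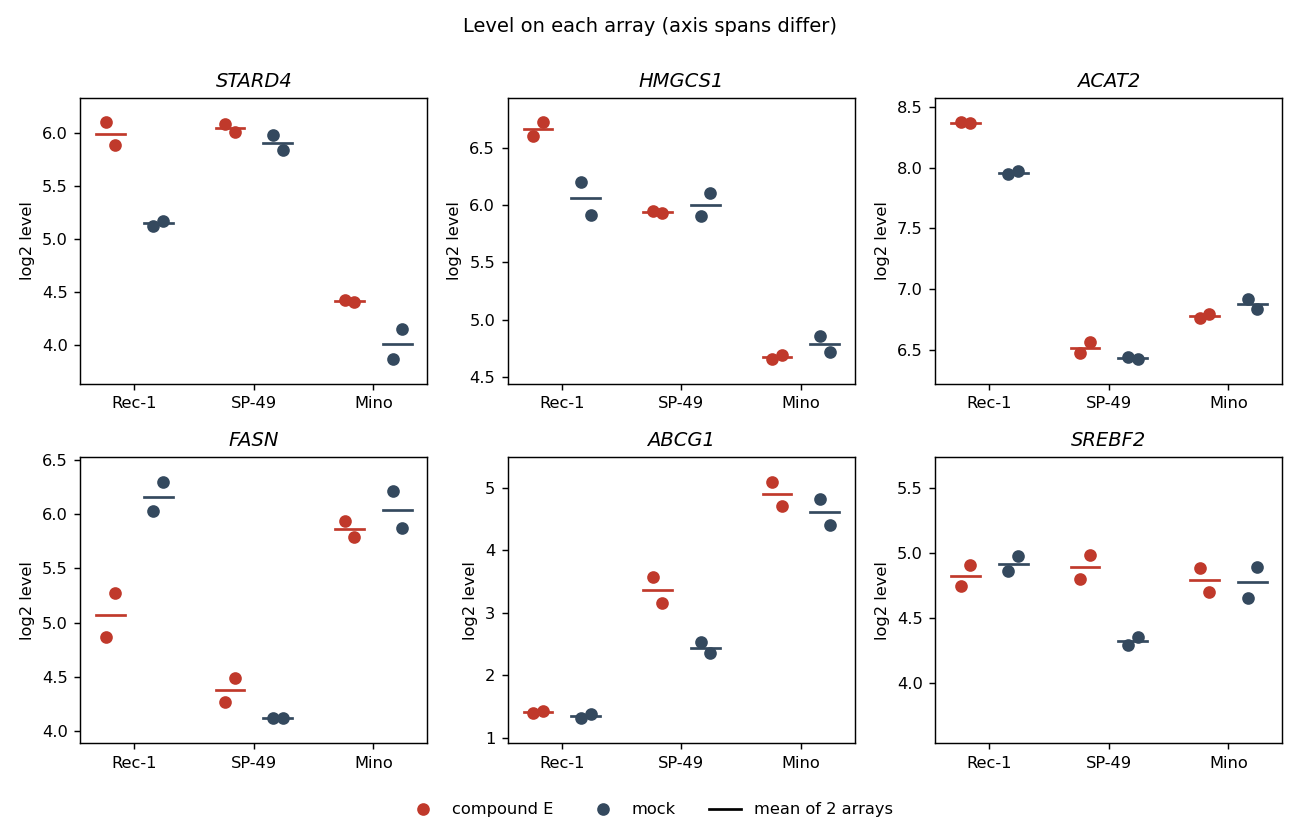
Level (log2, vertical axis) of STARD4, HMGCS1, ACAT2, FASN, ABCG1 and SREBF2 on each of the 12 arrays, GSI left of Mock in each line, with a bar at each group mean and axis spans that differ between genes. In Rec-1 both GSI points lie above both Mock points for STARD4, HMGCS1 and ACAT2 and below for FASN, and in SP-49 they lie above for ABCG1 and SREBF2.

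In SP-49 none of the 33 genes passed after GSI, where limma called 0.192% of all genes. At an unadjusted p under 0.05 there were 4 of 33, against 8.87% of all genes. ABCG1 had the smallest p, with levels of 3.57 and 3.16 in GSI and 2.54 and 2.35 in Mock cells. Both GSI arrays were above both Mock arrays, and the change was 0.92 (0.51 to 1.33, limma adjusted p = 0.0982). It passed only with array weights (limma adjusted p = 0.0415), and a dimmer probe set of the gene had a change of 0.43.

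SREBF2 followed in SP-49, with levels of 4.80 and 4.98 in GSI and 4.29 and 4.36 in Mock cells. The groups did not overlap, and the change was 0.57 (0.26 to 0.87, limma adjusted p = 0.183). A dimmer probe set of SREBF2 had a change of 0.25. SREBF1 had 4.46 and 4.04 in GSI and 4.29 and 4.14 in Mock cells, with overlap. INSIG1 had 7.68 and 7.59 in GSI and 7.53 and 7.37 in Mock cells, a change of 0.18 with both GSI arrays above. INSIG2, the second anchor of SCAP, had 3.53 and 3.37 in GSI and 3.92 and 3.98 in Mock cells, a change of -0.51 (limma adjusted p = 0.628).

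The enzymes of SP-49 had changes on both sides of 0. ELOVL6 had levels of 2.63 and 1.95 in GSI and 2.88 and 2.72 in Mock cells, a change of -0.51 (limma adjusted p = 0.492) that was -0.17 without GSI replicate 2. PMVK, a mevalonate pathway kinase, had 5.84 and 5.65 in GSI and 5.9985 and 6.06 in Mock cells (-0.29, limma adjusted p = 0.561). MVD, the decarboxylase that follows it, had 3.33 and 3.31 in GSI and 2.72 and 3.12 in Mock cells (0.41, limma adjusted p = 0.572), which ran from 0.205 to 0.607 with 1 array left out. These 3 kept their GSI and Mock arrays apart, PMVK and ELOVL6 with GSI below and MVD with GSI above. ACACA and ACLY also had both GSI arrays below both Mock arrays, as in Rec-1. Their changes were -0.29 and -0.14 (limma adjusted p = 0.674 and 0.871). Over the 7 measured fatty acid genes of SP-49, both GSI arrays lay below in 3 and above in 2, against 24.4% and 18.1% of all genes.

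The genes that passed in Rec-1 had small changes in SP-49. HMGCS1 had levels of 5.95 and 5.93 in GSI and 5.91 and 6.10 in Mock SP-49 cells, with overlap. STARD4 had 6.09 and 6.01 in GSI and 5.98 and 5.84 in Mock cells, a change of 0.14 (-0.16 to 0.44). FASN had 4.27 and 4.49 in GSI and 4.12 on both Mock arrays, a change of 0.26 (-0.12 to 0.65). So both GSI arrays were slightly above the Mock arrays for STARD4 and FASN, and the intervals include 0. SCD had 8.21 and 8.29 in GSI and 8.17 and 8.09 in Mock cells, NR1H3 had 2.001 and 2.009 against 2.36 and 2.10, and ABCA1 had 1.73 and 2.12 against 1.60 and 1.69. Their GSI arrays lay above the Mock arrays for SCD and ABCA1 and below for NR1H3, and none passed. The 15 sterol genes had changes of -0.29 to 0.41 with a median of -0.01, and the 33 genes a median of 0.001 against -0.02 over all genes. Both GSI arrays lay above both Mock arrays in 9 of the 33 genes and below in 9, against 18.1% and 24.4% of all genes.

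In Mino none of the 33 genes passed, and limma called 0.0% of all genes. At an unadjusted p under 0.05 there were 2 of 33, against 4.9% of all genes. STARD4 had levels of 4.43 and 4.41 in GSI and 3.87 and 4.15 in Mock cells. Both GSI arrays were above both Mock arrays, with a change of 0.41 (0.11 to 0.71, limma adjusted p = 0.929). NR1H3 had 2.28 and 2.39 in GSI and 2.01 and 1.94 in Mock cells (0.36, limma adjusted p = 0.992), and MVD had 3.22 and 2.89 against 2.74 and 2.60 (0.39, limma adjusted p = 0.992). Both again had GSI above Mock, NR1H3 at levels close to the median of the array, and the MVD change ran from 0.22 to 0.551 with 1 array left out.

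ABCG1 had 5.09 and 4.71 in GSI and 4.82 and 4.40 in Mock Mino cells, with overlap and a change of 0.29 that ran from 0.083 to 0.497 with 1 array left out. HSD17B7, a keto reductase of the sterol pathway, had 6.37 and 6.30 in GSI and 6.30 and 5.96 in Mock cells, and DHCR7 had 5.12 and 5.21 against 5.26 and 5.46. The HSD17B7 GSI arrays stood just above its Mock arrays, with a change of 0.21 that ran from 0.035 to 0.376 with 1 array left out. The DHCR7 GSI pair lay below its Mock pair, with a change of -0.19 that was 0.04 with the mean of its probe sets and ran from -0.289 to -0.088 with 1 array left out. HMGCS1 had 4.66 and 4.70 in GSI and 4.86 and 4.72 in Mock cells, FASN 5.94 and 5.79 against 6.21 and 5.87, and SCD 8.09 and 8.30 against 8.20 and 8.38. SREBF2 had 4.89 and 4.70 in GSI and 4.66 and 4.89 in Mock cells, SREBF1 4.05 and 3.65 against 3.90 and 3.93, INSIG1 7.05 and 7.01 against 6.91 and 7.12, and ABCA1 1.62 and 1.40 against 1.69 and 1.55. Of these 7, only HMGCS1 kept its groups apart. The 33 changes ran from -0.19 to 0.41 with a median of 0.06, against -0.004 over all genes. Both GSI arrays lay above both Mock arrays in 9 of the 33 and below in 4, against 16.2% and 17.0% of all genes.

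Averaged over the 3 lines, 1 of the 33 genes passed, where limma called 1.9% of all genes. STARD4 rose by 0.46 (0.29 to 0.64, 1.38-fold, limma adjusted p = 0.0153). Both its GSI arrays lay above both Mock arrays in 3 of 3 lines. Taken singly, 22.9% of all genes did so in Rec-1, 18.1% in SP-49 and 16.2% in Mino. The 3' to 5' gap of GAPDH was also higher in GSI arrays of Rec-1 and Mino, and its part was not tested. Leaving out Rec-1 Mock replicate 1, SP-49 Mock replicate 1, SP-49 Mock replicate 2 or Mino GSI replicate 1 ended this call, with limma adjusted p of 0.0549, 0.0505, 0.0626 and 0.0533. ABCG1 came next, at 0.43 (0.19 to 0.67, limma adjusted p = 0.0768). FASN averaged -0.34 (limma adjusted p = 0.135), a mean of 1 large negative change in Rec-1, a small negative one in Mino and a small positive one in SP-49.

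The differences between lines in the GSI change were tested directly. Between Rec-1 and SP-49, 1 of the 33 genes passed, where limma called 0.556% of all genes. The FASN change was -1.09 in Rec-1 and 0.26 in SP-49, a difference of -1.35 (-1.90 to -0.81, limma adjusted p = 0.0417). This call was held by a narrow margin: it ended in 15 of 22 alternatives, among them leaving out any 1 array other than the Rec-1 GSI arrays (limma adjusted p up to 0.175). Between Rec-1 and Mino 0 of 33 passed in limma, against 1.43% of all genes, and 4 of 33 had an unadjusted p under 0.05, against 14.1% of all genes. Between SP-49 and Mino 0 of 33 passed in limma, against 0.0455% of all genes, and 3 of 33 had an unadjusted p under 0.05, against 7.17% of all genes.

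For STARD4 and HMGCS1 a difference between lines was not established. The STARD4 change was 0.71 higher in Rec-1 than in SP-49 (0.28 to 1.13, limma adjusted p = 0.186) and 0.44 higher in Rec-1 than in Mino (0.01 to 0.86, limma adjusted p = 0.344). The HMGCS1 change was 0.67 higher in Rec-1 than in SP-49 (0.24 to 1.09, limma adjusted p = 0.214) and 0.71 higher in Rec-1 than in Mino (0.29 to 1.14, limma adjusted p = 0.112). For FASN the difference between Rec-1 and Mino was -0.92 (-1.46 to -0.37, limma adjusted p = 0.109). For ABCG1 the difference between Rec-1 and SP-49 was -0.85 (limma adjusted p = 0.244), with Rec-1 levels at the bottom of the range. The SREBF2 difference between these lines was -0.66 in the set used (limma adjusted p = 0.221). The SREBF2 set with a mean of 4.37 had the opposite order, with changes of 0.51 in Rec-1 and 0.25 in SP-49.

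Without the inhibitor the lines themselves differed in many of these genes. Between Mock Rec-1 and Mock Mino cells 19 of the 33 passed in limma, against 26.1% of all genes, with 11 higher in Rec-1 (background 12.8%) and 8 lower (13.3%). Between Mock SP-49 and Mock Mino cells 15 passed, against 25.6%, with 6 higher in SP-49 (13.9%) and 9 lower (11.8%). Between Mock Rec-1 and Mock SP-49 cells 15 passed, against 28.9%, with 8 higher in Rec-1 (13.1%) and 7 lower (15.8%). Among the 14470 genes with a group mean at or above the array median, as 32 of the 33 have, limma called 35.3%, 34.7% and 38.9% in these comparisons.

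**Figure D3:**
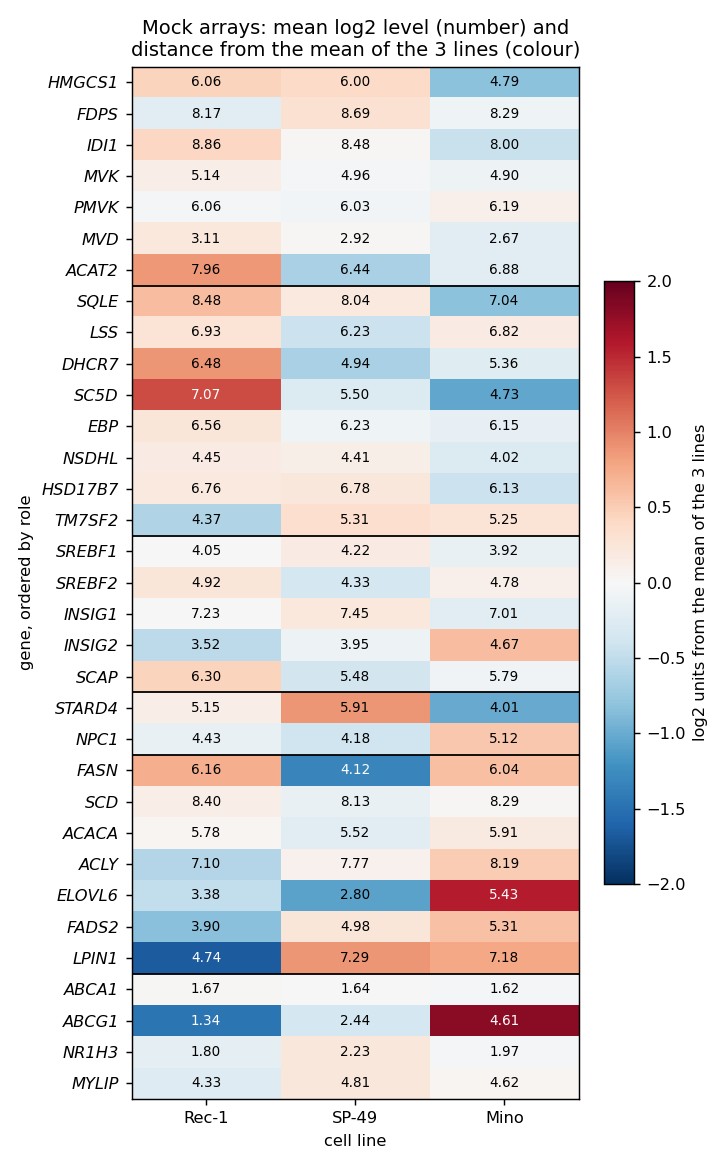
Mean Mock level (log2) of the 33 genes in Rec-1, SP-49 and Mino, 2 arrays each, each gene shown relative to its own mean over the 3 lines and ordered by role. Most sterol genes are higher in Rec-1 than in Mino, while ABCG1, ELOVL6 and LPIN1 are lower in Rec-1.

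The sterol arms were mostly higher in Rec-1 than in Mino. Of their 15 genes, 9 passed as higher in Mock Rec-1 cells (ACAT2, HMGCS1, IDI1, SQLE, NSDHL, HSD17B7, EBP, SC5D and DHCR7) and 1, TM7SF2, as lower, against 12.8% and 13.3% of all genes. In Mock SP-49 relative to Mock Mino cells 5 of the 15 passed as higher and 3 as lower, against 13.9% and 11.8% of all genes. SC5D, a desaturase late in the pathway, had Mock levels of 7.08 and 7.06 in Rec-1, 5.59 and 5.41 in SP-49 and 4.61 and 4.84 in Mino. The lines did not overlap, and Rec-1 was higher than Mino by 2.34 and than SP-49 by 1.57, while SP-49 was higher than Mino by 0.77 (limma adjusted p of 2.02e-07, 4.39e-06 and 0.00114). With the mean of the SC5D probe sets these differences were 1.21, 1.04 and 0.18, and the last no longer passed (limma adjusted p = 0.326).

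HMGCS1 was at a like Mock level in Rec-1 (6.20 and 5.92) and SP-49 (5.91 and 6.10) and lower in Mino (4.86 and 4.72), with a difference of 1.27 between Rec-1 and Mino (limma adjusted p = 3.22e-05). DHCR7 had 6.54 and 6.42 in Mock Rec-1, 4.82 and 5.07 in Mock SP-49 and 5.26 and 5.46 in Mock Mino cells. Rec-1 stood above both other lines, by 1.54 over SP-49 and 1.12 over Mino. SP-49 lay below Mino by -0.42 (limma adjusted p = 0.04), a call that ended in 13 of 21 alternatives, among them without SP-49 Mock replicate 1 (0.296) and without Mino Mock replicate 2 (0.23). ACAT2 had 7.95 and 7.97 in Mock Rec-1, 6.44 and 6.43 in Mock SP-49 and 6.92 and 6.84 in Mock Mino cells. Rec-1 was again the highest, by 1.52 over SP-49 and 1.08 over Mino, and SP-49 lay below Mino by -0.44 (limma adjusted p = 0.0118), which did not pass without SP-49 Mock replicate 1, SP-49 Mock replicate 2 or Mino Mock replicate 1 (0.0604 to 0.0699).

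STARD4 was ordered differently, with Mock levels of 5.12 and 5.18 in Rec-1, 5.98 and 5.84 in SP-49 and 3.87 and 4.15 in Mino. SP-49 was the highest, and Rec-1 was at -0.76 relative to it (limma adjusted p = 0.00115) and 1.14 above Mino (limma adjusted p = 7.4e-05). The 2 GSI arrays of Rec-1, 6.10 and 5.89, fell within or just above the range of all 4 SP-49 arrays.

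Among the 7 fatty acid genes, 0 passed as higher and 4 as lower in Mock Rec-1 than in Mock Mino cells (ACLY, ELOVL6, FADS2 and LPIN1), against 12.8% and 13.3% of all genes. In Mock SP-49 relative to Mock Mino cells 0 passed as higher and 3 as lower (ACLY, ELOVL6 and FASN), against 13.9% and 11.8%. FASN had Mock levels of 6.03 and 6.29 in Rec-1, 4.12 on both arrays of SP-49 and 6.21 and 5.87 in Mino. Rec-1 and Mino overlapped (0.12, limma adjusted p = 0.725) and both stood above SP-49, by 2.04 for Rec-1 and with SP-49 at -1.92 relative to Mino. With the mean of both FASN probe sets these differences were 1.15 and -1.27. The GSI levels of FASN in Rec-1, 4.86 and 5.27, were still above all 4 SP-49 arrays.

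LPIN1 had Mock levels of 5.14 and 4.34 in Rec-1, 7.17 and 7.42 in SP-49 and 7.23 and 7.13 in Mino. Rec-1 was the lowest, by -2.55 relative to SP-49 and -2.44 relative to Mino, and SP-49 and Mino overlapped (0.12, limma adjusted p = 0.808). ELOVL6 had 3.42 and 3.34 in Mock Rec-1, 2.88 and 2.72 in Mock SP-49 and 5.43 and 5.44 in Mock Mino cells. Mino stood far above both other lines, with Rec-1 at -2.05 and SP-49 at -2.63 relative to it, and Rec-1 and SP-49 did not differ past the threshold (0.58, limma adjusted p = 0.056).

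ABCG1 had the widest range of all 33 genes across the Mock lines, with 1.31 and 1.38 in Rec-1, 2.54 and 2.35 in SP-49 and 4.82 and 4.40 in Mino. The lines did not overlap, and Rec-1 was lower than Mino by -3.27 (limma adjusted p = 1.95e-07), SP-49 lower than Mino by -2.17 and Rec-1 lower than SP-49 by -1.10. Both Rec-1 values lie under the median of all values, and no detection calls were used, so the differences from Rec-1 are as read and may not give the true size. With the mean of its 4 probe sets the same differences were -1.18, -0.70 and -0.48, and all 3 still passed. SREBF2 was higher in Mock Rec-1 than in Mock SP-49 cells (4.86 and 4.98, against 4.29 and 4.36), a difference of 0.59 (limma adjusted p = 0.00649). SCAP was higher in Mock Rec-1 than in Mock SP-49 cells by 0.82 (limma adjusted p = 0.00129), and INSIG2 was lower in Mock Rec-1 than in Mock Mino cells by -1.14 (limma adjusted p = 0.00484).

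Of the 33 genes, 23 had more than 1 probe set naming them alone, 82 sets over all 33, and the sets did not always move together. In Rec-1, 30 of the 49 other sets changed in the same direction as the set used for their gene, and 15 of the 19 with a mean level of at least 4. In SP-49 these counts were 40 of 49 and 13 of 19, and in Mino 21 of 49 and 8 of 19. HMGCS1's other set, with a mean of 4.50, had a change of -0.22 in Rec-1 where the set used rose.

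For ACLY and SCD, some other probe sets had larger changes in Rec-1 than the sets used, which did not pass. Of ACLY, a set with a mean of 5.81 fell by 0.98 in Rec-1 (limma adjusted p = 0.00237 over all probe sets), and another with a mean of 4.62 had -0.70 (adjusted p = 0.0925), against -0.33 in the set used. Of SCD, sets with means of 4.03 and 3.79 fell by 0.84 and 0.85 (limma adjusted p = 0.0171 and 0.0204 over all probe sets), whereas the brightest, with a mean of 8.27, had -0.05 and the next, with a mean of 6.10, had -0.19. The deposited values do not show which transcripts each set reads. The sets used for IDI1, HSD17B7 and MYLIP are of a design that can also bind related transcripts, so their values are uncertain. The same design holds for FASN's other set, the SCD set with a mean of 3.79 and the IDI1 set with a mean of 8.46.

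**Figure D4:**
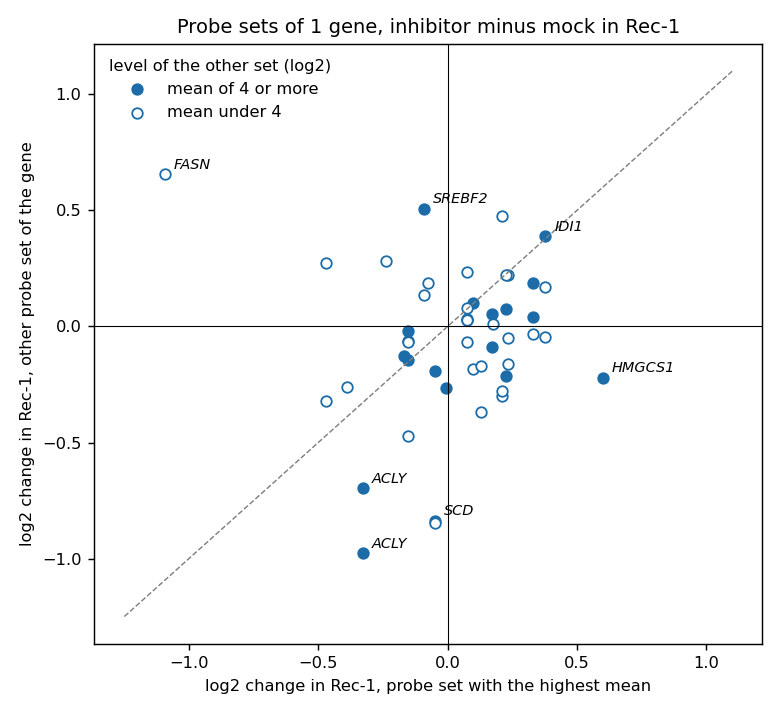
Change after GSI in Rec-1 (GSI minus Mock, log2 scale) of the probe set used for a gene (horizontal axis) and of each other probe set of that gene (vertical axis), with filled points for other sets of mean level 4 or more and a dashed line of equality. The brighter sets of IDI1 lie on the line, FASN, HMGCS1 and SREBF2 have sets on opposite sides of 0, and sets of ACLY and SCD lie further below 0 than the sets used.

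Further genes of the same pathways were counted in 3 lists. Of 24 further sterol and isoprenoid genes, 22 were measured, and in Rec-1 0 rose and 3 fell, against 2.15% and 3.62% of all genes. The 3 that fell were SCARB1, a receptor that takes up cholesterol from HDL, by 1.31 (limma adjusted p = 0.00312), LRP8, a lipoprotein receptor, by 0.98 (limma adjusted p = 0.0112), and NUS1, a subunit of the enzyme that makes dolichol, by 0.74 (limma adjusted p = 0.0111). SCARB1 had levels of 5.71 and 5.14 in GSI and 6.68 and 6.79 in Mock Rec-1 cells, with no overlap. The median change of the list in Rec-1 was -0.18, against 0.01 over all genes, where the 15 sterol enzymes had 0.21. In SP-49 and Mino 0 of the 22 passed in limma, with 2 and 1 at an unadjusted p under 0.05, against 8.87% and 4.9% of all genes.

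Of 28 further genes of fatty acid and lipid assembly, 25 were measured, and in Rec-1 1 rose and 2 fell, against 2.15% and 3.62% of all genes. FADS3, a member of the desaturase family, had levels of 5.91 and 6.10 in GSI and 5.15 and 5.00 in Mock Rec-1 cells, a rise of 0.93 (limma adjusted p = 0.00258). GPAM, which starts triglyceride synthesis, had 3.86 and 3.22 in GSI and 4.71 and 4.85 in Mock Rec-1 cells, a change of -1.24 (limma adjusted p = 0.011). FABP5, a carrier of fatty acids, had 9.27 and 9.22 in GSI and 10.04 and 10.08 in Mock Rec-1 cells, a change of -0.81 (limma adjusted p = 0.00333). None of these 3 had overlapping groups. In SP-49 and Mino 0 of the 25 passed in limma, with 4 and 0 at an unadjusted p under 0.05, against 8.87% and 4.9% of all genes.

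Of 12 further LXR partners and targets, 10 were measured and 0 passed in limma in Rec-1, SP-49 or Mino. At an unadjusted p under 0.05 there were 3 of 10 in Rec-1, 2 in SP-49 and 0 in Mino, against 19.2%, 8.87% and 4.9% of all genes. Averaged over the lines, NPC2, the lysosomal partner of NPC1, rose by 0.31 (limma adjusted p = 0.0396). In the same average FADS3 rose by 0.45 (limma adjusted p = 0.0155) and FABP5 fell by 0.47 (limma adjusted p = 0.00846). GSI and Mock arrays of each of these genes stood apart in Rec-1 and SP-49 but overlapped in Mino. There NPC2 had 7.26 and 7.31 in GSI and 7.24 and 7.32 in Mock cells. FADS3 had 7.05 and 7.03 against 7.01 and 7.07, and FABP5 9.53 and 9.65 against 9.46 and 9.56. The GSI change differed between Rec-1 and Mino for SCARB1 (-1.30), FABP5 (-0.89), GPAM (-1.70) and FADS3 (0.93), with limma adjusted p of 0.0347 to 0.0468. It differed between Rec-1 and SP-49 for RXRA, the partner receptor of LXR (1.38, limma adjusted p = 0.0291). RXRA had levels of 3.25 and 3.60 in GSI and 3.01 and 2.89 in Mock Rec-1 cells, against 5.49 and 5.86 in GSI and 6.53 and 6.63 in Mock SP-49 cells. Its GSI arrays thus lay above the Mock arrays in Rec-1 and below them in SP-49, though neither change passed within its line. MYC, a Notch target gene in this lymphoma, had levels of 7.12 and 6.52 in GSI and 8.32 and 8.38 in Mock Rec-1 cells and of 5.79 and 5.75 in GSI and 7.33 and 7.31 in Mock SP-49 cells. In Mino it had 9.86 and 10.04 in GSI and 9.92 and 9.72 in Mock cells, with overlap.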

How the data were processed

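RNA of 12 samples of 3 lymphoma lines was hybridised to Affymetrix arrays of 54675 probe sets. The deposited values are log2 intensities normalized by the authors, with RMA and limma named in the submitters' processing notes without versions; base 2 was inferred from the range of the values. Probe sets were named through GEO's platform annotation, which is old, with symbols updated by gene number through RefSeq. Of the sets, 41097 named 1 gene, 1801 several and 11777 none. The set with the highest mean over the 12 arrays represented its gene.

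limma 3.58.1 in R 4.3.3 was fitted to the 6 group means over all 12 arrays with moderated variances. Tests were two-sided, with Benjamini-Hochberg adjustment over 19775 genes and a threshold of 0.05, and intervals are 95%. The number of arrays limits the precision: a change within 1 line had a standard error of 0.164 at the median gene. No pair of arrays held identical values. The labels and values used here state neither scan dates nor batches.

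The 37 genes, the further lists and the tests were chosen with earlier results of these data known. Values on every array are given for genes past the threshold, for the 6 with the smallest p in each line, for SREBF1, SREBF2, NR1H3, INSIG1, HMGCS1, FASN, SCD and ABCA1, and for the 8 with the widest range of Mock means. Alternatives changed the probe set, the filter on dim genes, the normalization, the variance prior, the arrays in the fit, a fold minimum of 1.5, a replicate block and array weights, and left out each array. Same-numbered GSI and Mock arrays did not deviate together (correlations 0.046 in Mino, 0.094 in Rec-1 and -0.011 in SP-49), so replicate numbers were not used for pairing.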

Additional observations from a re-analysis of the deposited data

Results flagged for a closer look

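The change of FASN after GSI differed between Rec-1 and SP-49 by -1.35 on the log2 scale (limma adjusted p = 0.0417), the only one of the 33 genes whose GSI change differed between lines past the threshold. FASN had levels of 4.86 and 5.27 in GSI and 6.03 and 6.29 in Mock Rec-1 cells, and of 4.27 and 4.49 in GSI and 4.12 on both Mock arrays of SP-49. With the mean of both FASN probe sets the difference was -0.47 (limma adjusted p = 0.435).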

How the results depend on the processing

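The count of 3 genes past the threshold in Rec-1 became 5 with quantile normalization applied again, 5 with an intensity trend and robust prior and 0 with only the 4 arrays compared, and was 2 to 3 with each array left out. The counts of 0 in SP-49 and Mino stayed 0 under every alternative except array weights in SP-49, which gave 1. The count of 1 for the average of the lines was 2 with the mean of the probe sets, 2 with the trend and robust prior, 2 with the replicate block, 0 with a minimum of 1.5-fold and 0 to 1 with each array left out. The count of 1 for Rec-1 minus SP-49 was 0 with the mean of the probe sets, with every probe set tested on its own, with quantile normalization, with only the arrays compared and with both narrow-range GSI arrays left out, and 0 to 1 with each array left out. The Mock counts of 19, 15 and 15 ran from 15 to 19, 10 to 17 and 11 to 17 with each array left out, and from 16 to 19, 10 to 19 and 13 to 20 otherwise. The counts of 0 for the differences of Rec-1 and of SP-49 from Mino in the GSI change stayed 0 throughout.

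Signs turned in values that had not passed the test. With the mean of the probe sets, the DHCR7 change in Mino was 0.036, the FASN Mock difference between Rec-1 and Mino was -0.116 and the LPIN1 Mock difference between SP-49 and Mino was -0.217. With each array left out the FASN difference ran from -0.048, without Mino Mock replicate 2, to 0.289 and was -0.014 without Rec-1 Mock replicate 2, and the LPIN1 difference ran from -0.007, without SP-49 Mock replicate 2, to 0.242. The HMGCS1 rise in Rec-1 lost its call with the replicate block (limma adjusted p = 0.0682), with array weights (0.0728), with both narrow-range GSI arrays left out (0.13) and with only the arrays compared (0.203). With the replicate block 2 genes passed in Rec-1, 0 in SP-49, 0 in Mino and 1 in Rec-1 minus SP-49; the numbers are not known to pair the arrays. A fit to fewer arrays has fewer degrees of freedom, and the cause of the other changes was not tested. Background was not measured in the values used here, so how far values near the median of 1.99 can still fall is not known.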
